A study of Homo sapiens with 6 samples.

Results

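The protein-coding genes of human chromosome 19 whose symbols begin with ZNF, the ZNF zinc finger genes, were examined at the mRNA level in AGS cells with and without FTO depletion. Members were defined by symbol, gene type and GRCh37 position. The deposited table lists 58174 genes by Ensembl identifier. Among them, 249 ZNF genes of chromosome 19 were found. AGS is a gastric adenocarcinoma cell line of epithelial origin, and FTO is a demethylase that removes m6A, a methyl mark on mRNA. The series holds 3 libraries from cells given a negative control siRNA (si-NC) and 3 from cells given siRNA against FTO (si-FTO), made from total RNA with a stranded kit. A genotype label calls the former wild type and the latter FTO-/-, although the titles name siRNA. The groups are called by the titles here, and which description is right cannot be told apart from the values. Only 1 mean per group was used, in TPM, a share of all transcripts after scaling by length, so that no standard deviation, n or test stands behind any difference below and the sequencing depth is unknown.

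ZNF genes encode proteins with tandem C2H2 zinc fingers, each finger holding a zinc ion and contacting a few bases of DNA. Most of those on chromosome 19 arose by local duplication, lie in clusters on both arms and carry a KRAB domain at the start of the protein. The KRAB domain recruits the scaffold protein TRIM28, which in turn brings the histone methyltransferase SETDB1 and heterochromatin proteins to DNA. Many of these proteins bind retrotransposons and silence them in early development, and their transcripts are usually of low abundance.

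FTO itself had a mean of 33.1 TPM with si-NC and 7.27 TPM with si-FTO, for a log2 ratio of -2.05. Log2 ratios are of si-FTO over si-NC after adding 1 TPM to each mean, which understates differences of low values. A listed value of 0.0001 TPM was read as 0, and a gene at that value is described as listed at 0, without a ratio of its own, though it enters counts and medians. Genes with at least 0.5 TPM in at least 1 group were compared, and a log2 ratio of -1 or below is called lower and one of 1 or above higher. Over the 20493 genes compared, ratios centred on a median of -0.20, and those of the ZNF genes are read beside this shift.

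Marker genes of cell types differed between the groups. Of the epithelial markers, 11 were compared, with 8 higher and 1 lower with si-FTO (CDH1, 3.67 TPM with si-NC and 0.685 TPM with si-FTO). KRT8, the most abundant with si-FTO, had 10.8 TPM with si-NC and 3139 TPM with si-FTO. KRT18, its keratin partner, had 52.1 TPM with si-NC and 1851 TPM with si-FTO. KRT7 was listed at 0 for si-NC and had 253 TPM with si-FTO. ELF3 and ST14 had 0.115 and 0.0376 TPM with si-NC and 93.3 and 39.3 TPM with si-FTO. The claudin genes CLDN7, CLDN3 and CLDN4 had 1.17, 0.165 and 0.226 TPM with si-NC and 14.8, 2.95 and 2.70 TPM with si-FTO. KRT19 was listed at 0 for si-NC and had 0.130 TPM with si-FTO. EPCAM, an adhesion molecule of epithelia, had 1.22 TPM with si-NC and 0.113 TPM with si-FTO, and ESRP1 and GRHL2 were under 0.1 TPM with si-NC and listed at 0 for si-FTO. Markers of the epithelial type that the labels give were thus under 0.5 TPM in each group, among them KRT7, KRT19, ESRP1, GRHL2, ELF3, ST14, CLDN3 and CLDN4 with si-NC and KRT19, EPCAM, ESRP1 and GRHL2 with si-FTO. Neural and embryonic renal markers went the other way. All 6 of them were lower with si-FTO, and their summed level was 456 TPM with si-NC and 2.35 TPM with si-FTO. UCHL1, the most abundant, had 303 TPM with si-NC and 0.0204 TPM with si-FTO. The neurofilament genes NEFL and NEFM had 62.7 and 49.9 TPM with si-NC, and the kidney developmental factor PAX2 had 5.42 TPM, and each of the 3 was listed at 0 for si-FTO. Of 8 fibroblast and mesenchymal markers, 7 were compared, with 1 lower (COL3A1, 2.18 TPM with si-NC and 0.361 TPM with si-FTO) and 2 higher. Their summed level was 464 TPM with si-NC and 806 TPM with si-FTO, VIM being the most abundant and PDGFRB the member with the largest positive ratio, at 0.370 TPM with si-NC and 5.34 TPM with si-FTO. Of the endothelial markers, 2 were matched, with a summed level of 0.0132 TPM with si-NC and 41.0 TPM with si-FTO. VWF was under 0.1 TPM in both groups, whereas CDH5 had 0.00827 TPM with si-NC and 40.9 TPM with si-FTO. Whether the groups hold the same cells cannot be told apart from the siRNA in these group means, nor can fewer cells of a kind be told apart from less RNA per cell, and the part of the markers in the results below was not tested.

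FTO depletion was accompanied by lower mean levels of many ZNF genes of chromosome 19. Of the 249 members, 203 were compared, and 77 of them were lower with si-FTO against 5 higher. Lower genes made up 37.9% of the members compared and 17.0% of all genes compared, whereas higher genes made up 2.46% of the members and 11.4% of all genes. The median log2 ratio of the members compared was -0.72, which is -0.52 relative to the median of all genes. The ratio was below 0 in 173 of the 203 members, or 85.2%, beside 59.9% of all genes compared. A member that passed the filter on low values through 1 group alone had to differ. The filter takes out no lower gene, since a ratio of -1 after adding 1 TPM needs at least 1 TPM with si-NC, so leaving it off changes shares and medians but no count and is no check on such members. Over all 249 members, 30.9% were lower, with a median log2 ratio of -0.48, beside 13.8% and -0.03 over all 19634 protein-coding genes. Of all 58174 genes, 6.0% were lower, with a median of 0, but 64.8% of these genes were not compared, beside 18.5% of the members. The summed level of the 249 members was 1515 TPM with si-NC and 918 TPM with si-FTO. The 46 members not compared included 20 listed at 0 in both groups.

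**Figure D1:**
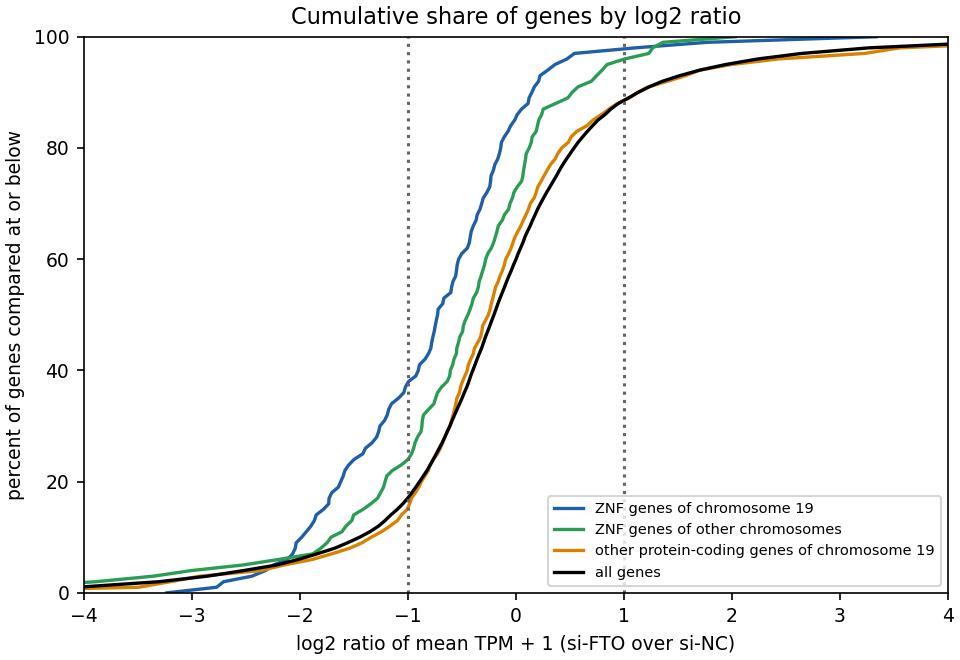
Cumulative percent of the genes compared (vertical axis) by the log2 ratio of mean TPM + 1, si-FTO over si-NC (horizontal axis), for ZNF genes of chromosome 19, ZNF genes of other chromosomes, other protein-coding genes of chromosome 19 and all genes. The curve of the 203 ZNF genes of chromosome 19 crosses -1 at 37.9%, and that of all genes at 17.0%.

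ZNF genes elsewhere in the genome stood between the members and the rest. On other chromosomes, 237 of 267 ZNF genes were compared, 57 were lower and 10 higher, and their median log2 ratio was -0.44. These counts were 24.05% and 4.22%, beside 17.0% and 11.4% of all genes compared. The sets were not matched by level, and whether this order follows from level was not tested. With si-NC, the median was 9.2 TPM over the ZNF genes of other chromosomes and 4.46 TPM over the members compared. ZNF22 on chromosome 10 had 30.7 TPM and ZNF711 on chromosome X 28.6 TPM with si-NC, and both were listed at 0 for si-FTO. ZNF785 on chromosome 16 had the largest positive ratio, with 0.821 TPM with si-NC and 6.45 TPM with si-FTO. The other protein-coding genes of chromosome 19, without the ZNF genes and related zinc finger families, had a median close to that of all genes. Of 829 compared, 127 were lower and 96 higher, or 15.3% and 11.6%, with a median log2 ratio of -0.25. NCCRP1 was listed at 0 for si-NC and had 256.3 TPM with si-FTO, and the gene with the lowest ratio, ENSG00000267303, had 65.4 TPM with si-NC and 0.163 TPM with si-FTO.

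Most members are low in abundance, and protein-coding genes from 2 to 10 TPM were lower with si-FTO more often than those above. Bins of the larger of both means, chosen after the data were seen, were therefore set beside all protein-coding genes. From 0.5 to 2 TPM, 8 of 30 members were lower, or 26.7%, beside 17.0% of protein-coding genes. From 2 to 5 TPM, the bin with the most members, 41 of 78 were lower, or 52.6%, beside 529 of 1368 protein-coding genes, or 39%. This share of protein-coding genes was above the 17.0% of all genes compared, which was not matched to the members by level. From 5 to 10 TPM, 20 of 56 members were lower, or 35.7%, beside 32.0%. At 10 TPM and above, 8 of 39 members were lower, or 20.5%, beside 14.6%. The members higher with si-FTO numbered 0, 1, 2 and 2 in these bins, and the shares of protein-coding genes were 5.75%, 14.6%, 11.5% and 12.6%. Whether these differences between shares exceed chance was not tested.

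Transcripts of some members were listed at 0 after FTO depletion. Of 188 members with at least 1 TPM with si-NC, 26 were listed at 0 for si-FTO, or 13.8%, beside 4.98% of all genes with at least 1 TPM with si-NC. Counting these, 39 of the 188 were under 0.1 TPM with si-FTO, or 20.7%, beside 7.43% of all such genes. The reverse was rare. Of 132 members with at least 1 TPM with si-FTO, 1 was listed at 0 for si-NC, or 0.758%, beside 1.87% of all genes. The 26 members had between 1.04 and 8.38 TPM with si-NC, with a median of 2.66 TPM. The shares of all genes here were not matched to the members by level. With si-NC, the median was 4.46 TPM over the members compared and 8.51 TPM over all genes compared.

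**Figure D2:**
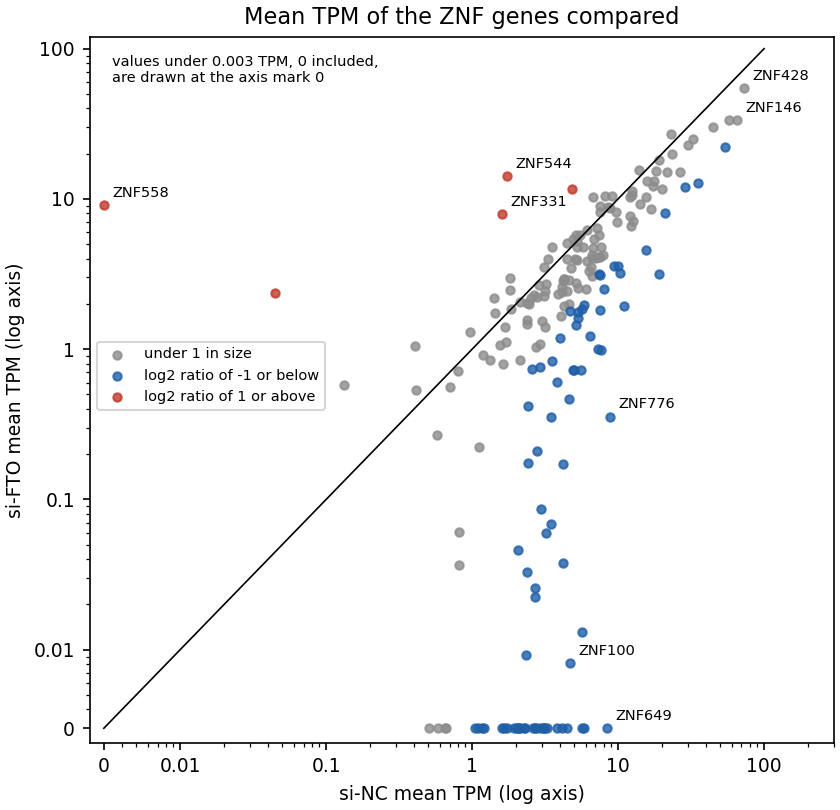
Mean TPM with si-NC (horizontal) and si-FTO (vertical) of the 203 ZNF genes of chromosome 19 compared, on log axes, with values under 0.003 TPM drawn at 0 and a line at equal values. Blue, red and grey points are the 77 lower, 5 higher and 121 other members, and members listed at 0 for si-FTO lie along the bottom.

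The members furthest below the threshold had moderate levels with si-NC and were at or near 0 with si-FTO, except ZNF776. ZNF649 (ENSG00000198093, chr19:52392488-52408293, minus strand of GRCh37), a KRAB zinc finger gene, had 8.38 TPM with si-NC and was listed at 0 for si-FTO. ZNF776 (ENSG00000152443, chr19:58258183-58269516, plus strand) had 8.80 TPM with si-NC and 0.355 TPM with si-FTO, for a log2 ratio of -2.85. ZNF772 (ENSG00000197128) had 5.65 TPM with si-NC and 0.0131 TPM with si-FTO, for a log2 ratio of -2.71. These genes lie in the clusters nearest the end of the long arm. ZNF724 (ENSG00000196081) had 5.83 TPM with si-NC, ZNF256 (ENSG00000152454) had 5.66 TPM and ZNF569 (ENSG00000196437) had 4.46 TPM, and all 3 were listed at 0 for si-FTO. ZNF724 is uncertain, because 55.2% of the 50-base words of its transcript also occur in transcripts of another annotated gene. ZNF100 (ENSG00000197020) had 4.66 TPM with si-NC and 0.00817 TPM with si-FTO, and ZNF571 (ENSG00000180479) had 4.19 TPM with si-NC and 0.0376 TPM with si-FTO, for log2 ratios of -2.49 and -2.32. ZNF536 (ENSG00000198597), a gene of neural differentiation that stands alone at 19q12, had 4.11 TPM with si-NC, and ZNF606 (ENSG00000166704) had 3.82 TPM, and both were listed at 0 for si-FTO. Exons of ZNF649 overlap those of ZNF577 on the same strand, those of ZNF569 overlap ZNF570 on the opposite strand, and ZNF776, ZNF772, ZNF100, ZNF571, ZNF536 and ZNF606 each overlap an exon of another annotated gene. Whether reads were counted by strand is not given, so these levels are uncertain.

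All 5 members higher with si-FTO can be given by name. ZNF558 (ENSG00000167785, chr19:8916846-8942990, minus strand) was listed at 0 for si-NC and had 9.10 TPM with si-FTO. ZNF544 (ENSG00000198131, chr19:58739960-58788861, plus strand) had 1.74 TPM with si-NC and 14.2 TPM with si-FTO, for a log2 ratio of 2.47. ZNF331 (ENSG00000130844), which is known for silencing by promoter methylation in gastric tumors, had 1.61 TPM with si-NC and 7.93 TPM with si-FTO, for a log2 ratio of 1.77. These 3 genes lie in 3 different clusters. ZNF600 (ENSG00000189190) had 0.0450 TPM with si-NC and 2.36 TPM with si-FTO, for a log2 ratio of 1.68. ZNF791 (ENSG00000173875) had 4.82 TPM with si-NC and 11.7 TPM with si-FTO, for a log2 ratio of 1.13. Exons of ZNF558, ZNF544 and ZNF791 overlap those of other annotated genes, whereas ZNF331 and ZNF600 have no such overlap.

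Of the 5 most abundant members, ZNF581 alone was past the threshold. ZNF428, which encodes a small protein, had 73.4 TPM with si-NC and 54.5 TPM with si-FTO, for a log2 ratio of -0.42. ZNF146, a gene without a KRAB domain whose protein consists almost wholly of fingers, had 65.6 TPM with si-NC and 33.4 TPM with si-FTO, for a log2 ratio of -0.95. ZNF358 had 44.5 TPM with si-NC and 30.1 TPM with si-FTO, for a log2 ratio of -0.55. Exons of ZNF581 overlap those of ZNF580 and CCDC106 on the same strand, and those of ZNF146 overlap ZNF565 and those of ZNF428 overlap SRRM5 on the opposite strand. ZNF580 had 57.6 TPM with si-NC and 33.4 TPM with si-FTO (log2 ratio -0.77), and ZNF581 had 54.4 TPM with si-NC and 22.2 TPM with si-FTO (log2 ratio -1.26). Among all members, 39 reached 10 TPM in either group. At the threshold, ZNF607 counted as lower with a log2 ratio of -1.01, from 7.42 TPM with si-NC to 3.18 TPM with si-FTO, and ZNF567 did not with -0.99, from 5.995 to 2.53 TPM.

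Members with well-studied roles differed among themselves. ZNF91, which represses SVA retrotransposons in primates, had 3.48 TPM with si-NC and 0.0688 TPM with si-FTO, for a log2 ratio of -2.07. ZNF93, a repressor of LINE elements, was not compared, with 0.0164 TPM with si-NC and a listed value of 0 with si-FTO. ZNF587, which together with its close relative ZNF417 binds endogenous retroviruses, had 28.9 TPM with si-NC and 12.1 TPM with si-FTO, for a log2 ratio of -1.20, and 24.7% of its 50-base words are shared with another gene. ZNF350, also known as ZBRK1 and a partner of BRCA1, had 2.94 TPM with si-NC and 0.756 TPM with si-FTO, for a log2 ratio of -1.16, or -0.86 and so within the threshold after quantile normalization. ZNF274 and ZNF473 were within the threshold. ZNF274, which brings SETDB1 to the ends of zinc finger genes themselves, had 18.96 TPM with si-NC and 18.0 TPM with si-FTO, for a log2 ratio of -0.07 that turned positive under both scalings tried. ZNF473, a component of histone mRNA processing, had 14.04 TPM with si-NC and 9.28 TPM with si-FTO, for a log2 ratio of -0.55.

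The differences were uneven along the chromosome. Members were split into clusters wherever the starts of neighbouring members lay over 1 Mb apart, and 8 clusters with at least 5 members compared held 233 of the 249 members. The lower members made up from 13.0% of those compared at 19q13.31 to 69.2% at 19q13.12. Cluster medians of the log2 ratio ran from -0.20 at 19q13.31, close to the median of all genes, to -1.50 at 19q13.12. Whether the clusters differ beyond chance was not tested. The ratio of a member and that of the next one compared had a Spearman rho of 0.417 over 187 pairs of neighbours. Pairs lay within a cluster or within a smaller group outside the 8 clusters. This is a correlation across genes that are not independent. Stretches of neighbours are counted over members compared, passing over the others. Exons of neighbours can overlap, and rho was 0.263 over the 30 pairs in which neither member had an exon overlap with another annotated gene.

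**Figure D3:**
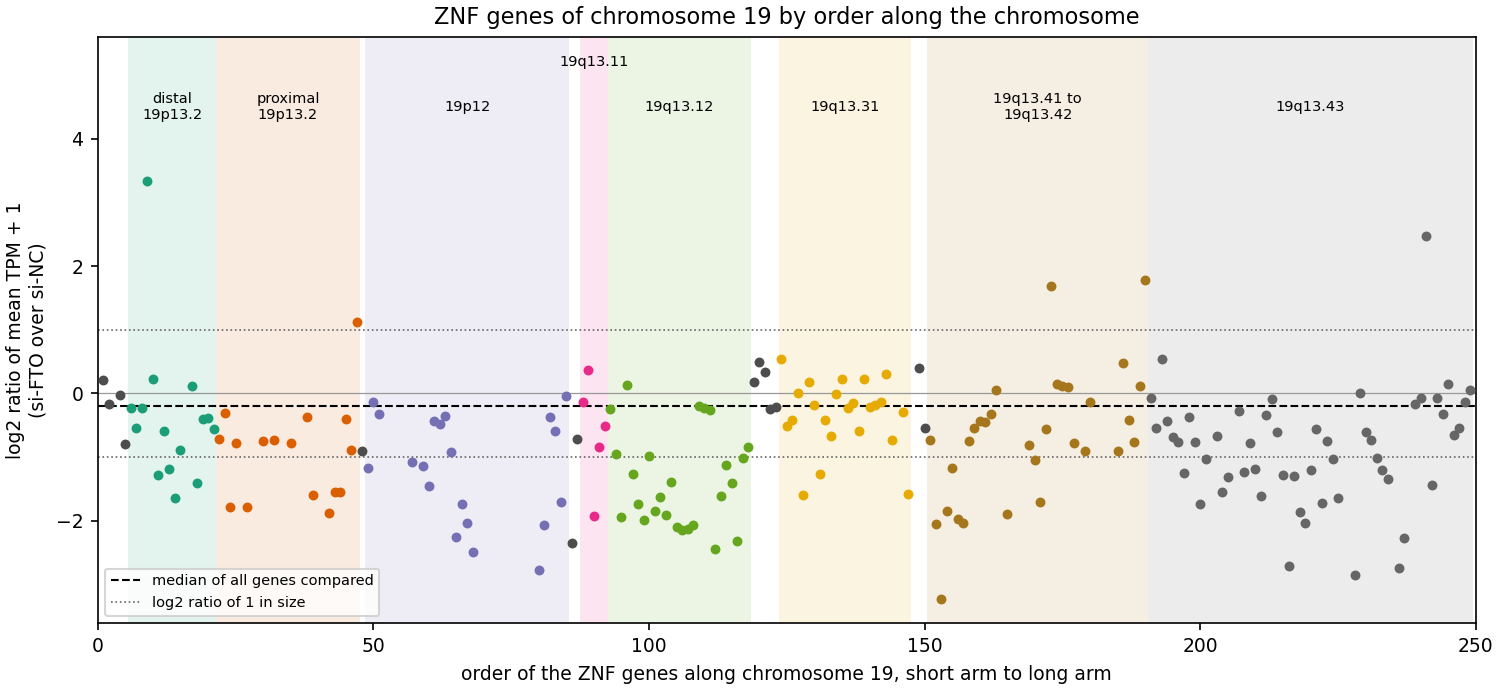
Log2 ratio of mean TPM + 1, si-FTO over si-NC (vertical), of the 203 ZNF genes compared, in their order along chromosome 19 (horizontal), with the 8 clusters shaded, the median of all genes dashed at -0.20 and -1 and 1 dotted. Points at 19q13.31 lie around the dashed line, whereas most points at 19q13.12 lie below -1.

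The cluster with the lowest median lay at 19q13.12 (chr19:36673178-38307940), where all 26 members were compared and 18 were lower, with 0 higher. This rank depends on the filter, since at a minimum of 5 TPM the 8 members left had a median of -0.999 and 19p12 was lowest, at -1.17 over 5 members. The cluster held 3 unbroken stretches of lower members. The longest ran over 8 consecutive members from ZNF850 to ZNF585B, the next over 6 from ZNF569 to ZNF607, and the shortest over 3, ZNF529, ZNF382 and ZNF461. These lengths rest on members close to the threshold. Only ZNF567, with a log2 ratio of -0.99, separates the shortest stretch from the longest. ZNF607, with -1.01, ends the stretch of 6. In the longest stretch, ZNF790 had 2.10 TPM, ZNF345 had 2.73 TPM and ZNF568 had 3.27 TPM with si-NC, and all 3 were listed at 0 for si-FTO. ZNF850 had 2.70 TPM with si-NC and 0.0257 TPM with si-FTO. ZNF829 had 1.61 TPM with si-NC and 0.000541 TPM with si-FTO. Farther along the stretch, ZNF420 had 4.204 TPM with si-NC and 0.172 TPM with si-FTO, and the neighbouring paralogs ZNF585A and ZNF585B, which share 18.3% and 26.6% of their words with other genes, had 7.65 and 7.31 TPM with si-NC and 0.989 and 0.997 TPM with si-FTO. In the stretch of 6, ZNF569, ZNF570, ZNF793 and ZNF540 were all listed at 0 for si-FTO, with between 1.18 TPM (ZNF793) and 4.46 TPM (ZNF569) with si-NC. The longest stretch and that of 6 are separated by 3 members within the threshold, ZNF383, ZNF875 and ZNF527, of which ZNF875 had 15.8 TPM with si-NC and 13.26 TPM with si-FTO. ZNF260 had the largest positive ratio of the cluster, with 3.10 TPM with si-NC and 3.51 TPM with si-FTO, for a log2 ratio of 0.14. The summed level of the cluster was 177 TPM with si-NC and 71.4 TPM with si-FTO. The related gene ZFP30, which lies between the members, had 6.05 TPM with si-NC and was listed at 0 for si-FTO. ZFP14, the other related gene compared there, had 1.28 TPM with si-NC and 0.332 TPM with si-FTO. Its log2 ratio of -0.78 was within the threshold. Members of the stretches were named here after their values were seen.

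**Figure D4:**
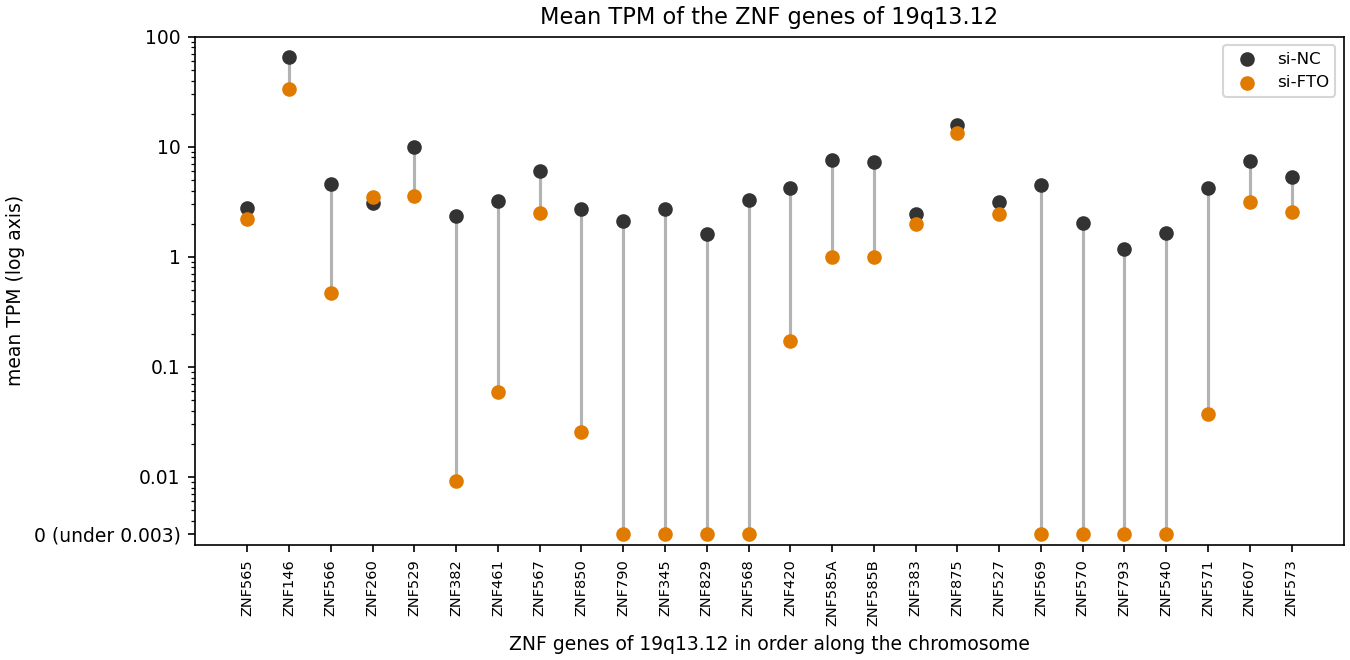
Mean TPM (vertical, log axis) with si-NC (dark) and si-FTO (orange) of the 26 ZNF genes of 19q13.12, in order along the chromosome (horizontal), with values under 0.003 TPM drawn at 0 and grey lines joining both means. From ZNF850 to ZNF585B, all 8 genes are lower with si-FTO.

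The 19p12 cluster (chr19:19779605-24312770), which expanded in primates and holds ZNF91 and its relatives, had the most members left out for low levels. Of its 37 members, 17 were not compared, and of the other 20, 11 were lower and 0 higher, with a median log2 ratio of -1.11. Of 18 members with at least 1 TPM with si-NC, 5 were listed at 0 for si-FTO. Neighbours ZNF737, ZNF66 and ZNF85 had 1.10, 1.21 and 1.72 TPM with si-NC and were listed at 0 for si-FTO. A longer stretch of 6 lower members ran from ZNF738 to ZNF91. ZNF738, the most abundant member of the cluster with si-NC, had 18.97 TPM there and 3.19 TPM with si-FTO, for a log2 ratio of -2.25, and 28.6% of its words are shared with another gene. ZNF429 had 3.10 TPM with si-NC and was listed at 0 for si-FTO. Between these stretches, ZNF430, ZNF714, ZNF431 and ZNF708 were within the threshold, and ZNF714 had 17.3 TPM with si-NC and 12.2 TPM with si-FTO. ZNF254, with the ratio closest to 0 at -0.04, had 2.13 TPM with si-NC and 2.05 TPM with si-FTO, and its ratio turned positive under both scalings tried. No other protein-coding gene between the first and the last member was compared here. Over all 37 members the median log2 ratio was -0.22.

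Both clusters at 19p13.2 had intermediate medians. The distal one (chr19:7069714-9903856) had 15 of 16 members compared, 4 lower and 1 higher (ZNF558), with a median log2 ratio of -0.55. ZNF121 had 35.3 TPM with si-NC and 12.8 TPM with si-FTO, for a log2 ratio of -1.40. ZNF177 had the lowest ratio, with 2.77 TPM with si-NC and 0.209 TPM with si-FTO, but 95.4% of its words also occur in a read-through gene that joins it to ZNF559, so its level is uncertain. The 36 other protein-coding genes compared between the members had 2 lower, 3 higher and a median log2 ratio of 0.03. The proximal cluster (chr19:11594242-12750912) had 16 of 26 members compared, 6 lower and 1 higher (ZNF791), with a median log2 ratio of -0.78. Its 4 consecutive lower members were ZNF44, ZNF799, ZNF443 and ZNF709. ZNF44 had 3.84 TPM with si-NC and 0.606 TPM with si-FTO, for a log2 ratio of -1.59. ZNF799 had 2.97 TPM with si-NC and 0.0864 TPM with si-FTO, for a log2 ratio of -1.87, with 47.7% of its words shared, and for ZNF709 this was 92.3%. ZNF823 and ZNF440, farther from the centromere, had 4.94 and 4.95 TPM with si-NC and 0.729 TPM each with si-FTO. Of 3 other protein-coding genes compared there, 1 was lower and 0 higher, with a median log2 ratio of -0.65.

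The clusters at 19q13.31 and 19q13.11 had the smallest shares of lower members. At 19q13.31 (chr19:44029649-45579736), 23 of 24 members were compared, of which 3 were lower and 0 higher. An unbroken stretch of 14 members from ZNF230 to ZNF180 lay within the threshold. It includes ZNF224, a KRAB gene first described as a repressor of aldolase A, with 9.74 TPM with si-NC and 8.18 TPM with si-FTO. ZNF227 had 12.1 TPM with si-NC and 10.3 TPM with si-FTO, and ZNF226 had 7.52 TPM with si-NC and 8.95 TPM with si-FTO. The 3 lower members were ZNF404, with 2.02 TPM with si-NC and listed at 0 for si-FTO, ZNF155, with 5.27 and 1.61 TPM, and ZNF296, with 15.6 and 4.58 TPM. ZNF575 had the largest positive ratio there, 0.55, with 0.404 TPM with si-NC and 1.05 TPM with si-FTO. With a pseudocount of 0.1, the ratio of ZNF575 was 1.19 and so past the threshold. The 19 other protein-coding genes compared between the members had a median log2 ratio of 0.15, with 2 lower and 4 higher. At 19q13.11 (chr19:35168544-35455133), 1 of 5 members was lower, and the median log2 ratio was -0.51. ZNF599 had 5.55 TPM with si-NC and 0.725 TPM with si-FTO, for a log2 ratio of -1.93, whereas its neighbour ZNF181 had 3.51 TPM with si-NC and 4.81 TPM with si-FTO, for a log2 ratio of 0.37.

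At 19q13.41 to 19q13.42 (chr19:52074536-54083523), lower members lay partly in a stretch and partly between members within the threshold. Of 40 members, 31 were compared, 9 were lower and 2 higher, with a median log2 ratio of -0.72. The 6 lower members ZNF577, ZNF649, ZNF613, ZNF350, ZNF615 and ZNF614 followed each other near the centromeric end. ZNF577 had 3.12 TPM and ZNF615 2.90 TPM with si-NC, and both were listed at 0 for si-FTO. ZNF614 had 11.1 TPM with si-NC and 1.94 TPM with si-FTO, for a log2 ratio of -2.04. The next 6 members, from ZNF432 to ZNF480, lay within the threshold, and so did 11 consecutive members from ZNF28 to ZNF813. ZNF320, in the latter stretch, had 7.53 TPM with si-NC and 8.19 TPM with si-FTO. ZNF600 and ZNF331, the higher members, flank this stretch on either side. The remaining lower members were ZNF880, with 2.71 TPM with si-NC and listed at 0 for si-FTO, ZNF701, with 2.58 and 0.736 TPM, and ZNF83, with 2.38 and 0.0330 TPM. The 3 other protein-coding genes compared in the cluster had 1 lower, 0 higher and a median log2 ratio of -0.79.

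The cluster at 19q13.43 (chr19:55987984-58992597), at the end of the long arm, was the largest. Of 59 members, 53 were compared, 24 were lower and 1 higher (ZNF544), with a median log2 ratio of -0.76. Of 51 members with at least 1 TPM with si-NC, 8 were listed at 0 for si-FTO. Lower members again followed each other. A stretch of 6 ran from ZNF749 to ZNF550, and one of 5 from ZNF814 to ZNF606. In the first, ZNF749 had 21.1 TPM with si-NC and 8.10 TPM with si-FTO, for a log2 ratio of -1.28, and ZNF773 and ZNF549 had 2.61 and 3.08 TPM with si-NC and were listed at 0 for si-FTO. In the second, ZNF417 had 7.96 TPM with si-NC and 2.52 TPM with si-FTO, for a log2 ratio of -1.35, with 37.9% of its words shared. The 7 members nearest the telomere, from ZNF497 to ZNF446, lay within the threshold, and ZNF584 among them had 13.8 TPM with si-NC and 15.5 TPM with si-FTO. ZNF544 and its neighbour ZNF8 differed in direction, since ZNF8 had 10.3 TPM with si-NC and 3.21 TPM with si-FTO, for a log2 ratio of -1.43. The 16 other protein-coding genes compared between the members had 3 lower, 1 higher and a median log2 ratio of -0.62.

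**Figure D5:**
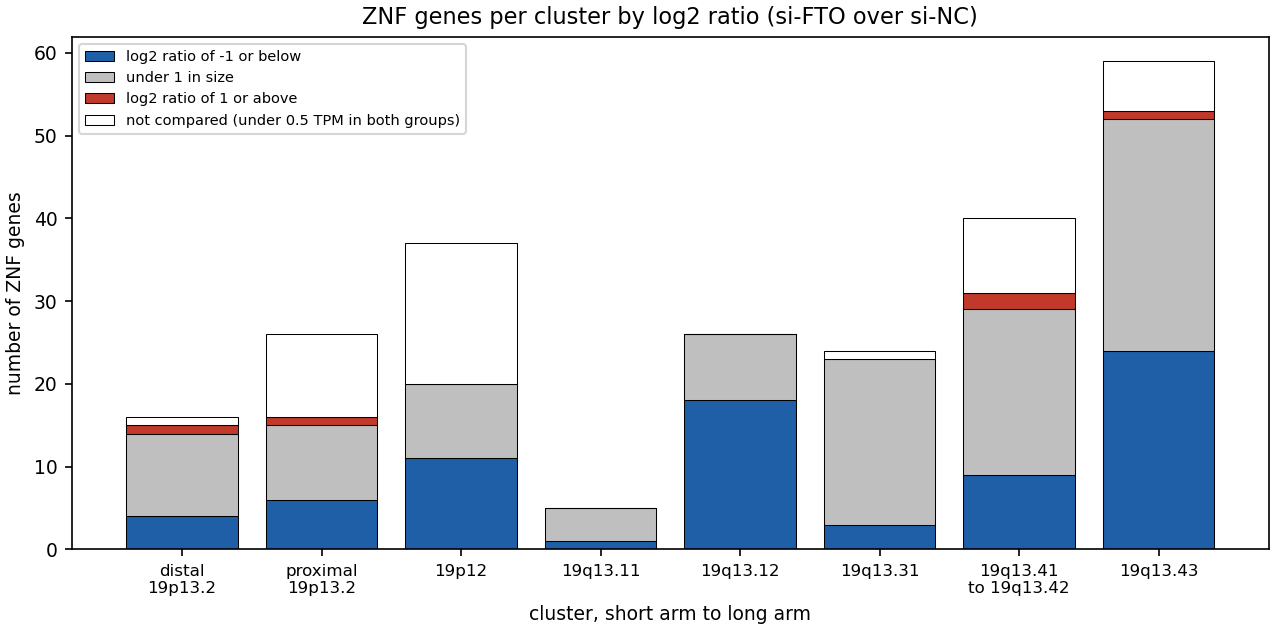
Number of ZNF genes (vertical) in each of the 8 clusters, in order from the short arm to the long arm (horizontal), split into members lower with si-FTO, within the threshold, higher, and not compared. At 19q13.12, 18 of 26 members are lower, and at 19q13.31, 3 of 24.

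Outside the clusters lay 16 members, with 1 lower, ZNF536. ZNF780A at 19q13.2 had 8.14 TPM with si-NC and 10.5 TPM with si-FTO, for a log2 ratio of 0.34, and its neighbours ZNF780B and ZNF546 also had positive ratios, 0.49 and 0.18. ZNF507 at 19q13.11, a gene without a KRAB domain, had 19.9 TPM with si-NC and 11.7 TPM with si-FTO, for a log2 ratio of -0.72. ZNF574 and ZNF526 had 23.6 and 12.5 TPM with si-NC and 19.8 and 10.7 TPM with si-FTO. Each of the 4 members compared at 19p13.3 lay within the threshold.

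Promoters of the members were searched for short words, which the choice of members did not use. RefSeq promoters of GRCh38.p14, 250 bases before to 50 bases after the start of transcription, were found for 218 of the 249 members. The letters CCGGAAG, which ETS-family factors recognise, occurred on either strand in 45.4% of them, beside 14.4% of 15220 promoters of protein-coding genes. Promoters of ZNF genes of other chromosomes held them in 34.1%, and those of the other protein-coding genes of chromosome 19 in 13.0%. The word AATGTAGT, which was picked after the promoters had been searched for shared words, occurred in 15.6% of the members' promoters and 1.12% of all, beside 3.69% for ZNF genes of other chromosomes and 0.857% for the other genes of chromosome 19. CCAAT occurred in 54.1% of the members' promoters and 36.6% of all, with 43.3% and 37.4% in those same sets. GGGCGG occurred in 67.9% and 59.4%, with 60.4% and 66.7%, and CACGTG in 4.13% and 8.89%, with 5.99% and 8.79%. Matches of CCGGAAG overlapped those of GGGCGG in 1 member's promoter and those of the other words in 0, and matches of CCAAT and GGGCGG overlapped in 3. Promoters of 6 members are shown here to compare lower members (ZNF850, ZNF345, ZNF568 and ZNF256) with higher ones (ZNF558 and ZNF544), and capitals mark CCGGAAG, AATGTAGT and their reverse complements. They lie on chromosome 19 of GRCh38.p14 at chr19:36772758-36773057 (ZNF850, minus strand), chr19:36850626-36850925 (ZNF345, plus), chr19:36916082-36916381 (ZNF568, plus), chr19:57947657-57947956 (ZNF256, minus), chr19:8832255-8832554 (ZNF558, minus) and chr19:58228664-58228963 (ZNF544, plus).
ZNF850: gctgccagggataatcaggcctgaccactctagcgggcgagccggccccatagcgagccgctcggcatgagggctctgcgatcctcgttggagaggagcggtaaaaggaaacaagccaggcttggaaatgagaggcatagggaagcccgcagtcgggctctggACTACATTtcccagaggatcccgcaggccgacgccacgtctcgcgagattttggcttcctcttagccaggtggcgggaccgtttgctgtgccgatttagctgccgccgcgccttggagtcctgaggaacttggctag
ZNF345: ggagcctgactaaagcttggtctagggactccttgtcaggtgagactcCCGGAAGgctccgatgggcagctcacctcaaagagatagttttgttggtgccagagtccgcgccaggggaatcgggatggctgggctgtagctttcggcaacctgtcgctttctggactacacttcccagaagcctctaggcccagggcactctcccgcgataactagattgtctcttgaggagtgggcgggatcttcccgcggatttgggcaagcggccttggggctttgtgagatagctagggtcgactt
ZNF568: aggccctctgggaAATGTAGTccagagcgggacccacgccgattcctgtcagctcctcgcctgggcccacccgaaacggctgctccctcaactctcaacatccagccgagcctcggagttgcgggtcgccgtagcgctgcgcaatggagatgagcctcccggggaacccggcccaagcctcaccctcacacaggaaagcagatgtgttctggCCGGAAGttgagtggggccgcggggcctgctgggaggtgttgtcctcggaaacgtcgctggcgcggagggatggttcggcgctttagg
ZNF256: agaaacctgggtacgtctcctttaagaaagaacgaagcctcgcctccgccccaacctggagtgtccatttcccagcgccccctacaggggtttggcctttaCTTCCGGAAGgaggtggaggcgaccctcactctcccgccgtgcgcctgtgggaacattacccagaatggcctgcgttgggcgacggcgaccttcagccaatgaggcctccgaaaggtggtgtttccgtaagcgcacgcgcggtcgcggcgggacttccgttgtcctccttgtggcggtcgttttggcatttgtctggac
ZNF558: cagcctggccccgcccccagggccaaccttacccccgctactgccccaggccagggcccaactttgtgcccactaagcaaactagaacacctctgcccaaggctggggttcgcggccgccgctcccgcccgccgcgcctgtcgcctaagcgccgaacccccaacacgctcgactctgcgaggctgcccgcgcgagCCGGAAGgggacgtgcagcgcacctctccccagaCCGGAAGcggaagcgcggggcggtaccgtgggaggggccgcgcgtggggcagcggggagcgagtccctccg
ZNF544: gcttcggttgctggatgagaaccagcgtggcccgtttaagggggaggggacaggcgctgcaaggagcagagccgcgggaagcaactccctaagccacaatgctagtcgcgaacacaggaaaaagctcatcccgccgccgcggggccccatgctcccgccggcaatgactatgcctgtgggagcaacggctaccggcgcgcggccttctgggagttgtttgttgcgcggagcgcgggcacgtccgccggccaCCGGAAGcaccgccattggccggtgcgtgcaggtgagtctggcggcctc
The letters CCGGAAG are present once in ZNF345, ZNF568 and ZNF544 and at 2 places in ZNF558, while ZNF256 has 1 stretch, CTTCCGGAAG, that matches on both strands. AATGTAGT is present in ZNF850 and ZNF568, of which ZNF568 holds both words, and in the higher member ZNF331, not printed here. CCGGAAG is absent from the promoters of ZNF331 and ZNF791, the other higher members with a promoter. The printed promoters are thus no measure of how often CCGGAAG occurs.

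The words were then counted in lower members, those within the threshold and higher ones. CCGGAAG was found in 31 of 70 promoters of lower members, or 44.3%, and in 52 of 107 promoters of members within the threshold, or 48.6%. AATGTAGT was found in 14 of the former and 17 of the latter. Promoters of higher members numbered 4, of which 2 held CCGGAAG and 1 held AATGTAGT. CpG dinucleotides numbered a median of 20 in promoters of lower members and 22 in those within the threshold, beside 22 over all protein-coding promoters. Spearman's rho of the log2 ratio with the CpG number was 0.142 over 181 members, a correlation across genes. Of the members with a promoter, 7 pairs on opposite strands had overlapping windows. In 4 pairs both members were lower, namely ZNF382 and ZNF529, ZNF345 and ZNF790, ZNF568 and ZNF829, and ZNF569 and ZNF570, all at 19q13.12. The pair of ZNF791 and ZNF490 parted, since ZNF791 was higher and ZNF490 had 2.75 TPM with si-NC and 1.04 TPM with si-FTO, for a log2 ratio of -0.88.

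Features of the encoded proteins were counted in the translated reading frame of 1 transcript per gene. A residue pattern of the KRAB A box was found near the start of 209 proteins and not in 39, and ZNF274 could not be read. Among members compared, 71 of 169 with the pattern were lower, or 42.0%, and 6 of 33 without it, or 18.2%. Members without the pattern were more abundant, with a median of 9.82 TPM with si-NC beside 4.19 TPM for those with it, and their median log2 ratios were -0.55 and -0.76. All 5 higher members carried the pattern, as did 169 of the 202 members compared that could be read. The number of C2H2 fingers had a median of 12 and reached 36. Lower members made up 36.4% of those with up to 9 fingers, 40.5% of those with 10 to 14 and 36.5% of those with 15 or more. Spearman's rho with the log2 ratio, across genes, was -0.095 for the number of fingers, -0.053 for transcript length and -0.029 for the length of the 3′ UTR. GC content of the transcript gave 0.187.

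The other zinc finger families of chromosome 19 (ZFP, ZSCAN, ZBTB, ZIM, ZIK and ZKSCAN symbols, and PEG3) held both lower and higher genes. Of 19 genes, 11 were compared, 4 were lower and 2 higher, with a median log2 ratio of -0.70. The lower ones made up 36.4%, beside 37.9% of the members and 17.0% of all genes compared. The higher ones made up 18.2%, beside 2.46% and 11.4%. The median of the members was -0.72. ZFP30, ZSCAN18 and ZFP28 had 6.05, 3.60 and 1.64 TPM with si-NC and were listed at 0 for si-FTO, and ZIK1 had 1.54 TPM with si-NC and 0.0818 TPM with si-FTO. The higher ones were of other kinds. ZBTB45, a BTB domain gene, had 11.5 TPM with si-NC and 32.0 TPM with si-FTO, for a log2 ratio of 1.40, and ZFP36, which encodes the mRNA decay factor tristetraprolin with CCCH fingers, had 5.06 TPM with si-NC and 14.2 TPM with si-FTO, for a log2 ratio of 1.32.

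The cofactors through which KRAB proteins act had a median close to that of all genes. All 30 genes of the list were compared, with 2 lower, 4 higher and a median log2 ratio of -0.14. These counts were 6.67% and 13%, beside 17.0% and 11.4% of all genes compared. The list was not matched to all genes by level. With si-NC, its median was 69.2 TPM, beside 8.51 TPM over all genes compared. TRIM28 had 430 TPM with si-NC and 411 TPM with si-FTO, for a log2 ratio of -0.06. SETDB1 had 55.2 TPM with si-NC and 45.8 TPM with si-FTO, for a log2 ratio of -0.26. The lower genes were DNMT3B, a de novo DNA methyltransferase, with 34.5 TPM with si-NC and 12.1 TPM with si-FTO (log2 ratio -1.43), and the histone deacetylase gene HDAC2, with 72.7 TPM with si-NC and 31.5 TPM with si-FTO (log2 ratio -1.18). Among the higher genes, ATRX, a chromatin remodeler of heterochromatin, had 11.2 TPM with si-NC and 32.9 TPM with si-FTO, for a log2 ratio of 1.47. The heterochromatin protein genes CBX5 and CBX1 had 45.1 and 41.2 TPM with si-NC and 113 and 89.2 TPM with si-FTO. DNMT3A had 9.77 TPM with si-NC and 20.9 TPM with si-FTO, for a log2 ratio of 1.02.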

How the data were processed

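Per the labels, 3 si-NC and 3 si-FTO libraries of AGS total RNA were made with a stranded kit. The authors mapped reads to hg19 with Bowtie and quantified them with RSEM according to the study's methods, whereas the submitters' processing notes name HISAT2. The annotation, strand setting and versions are not given in the sources used here. For 58174 genes, the deposited values are TPM averaged by the authors over each group. TPM keeps no depth, so the precision of each mean is unknown. The deposited log2 fold change, p-value and q-value columns, and a second list of changed genes, hold the authors' own comparison and were not used.

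Identifiers were matched to symbols and GRCh37 positions in the GENCODE annotation lifted to that build, which covered 55726 genes. A log2 ratio of mean TPM was computed with a pseudocount of 1 for genes with at least 0.5 TPM in at least 1 group. Means listed as 0.0001 TPM were taken as 0. Ratios of at least 1 in size were called, with no test, since group means allow none. Clusters began where starts lay over 1 Mb apart and were named by the bands that hold at least 20% of their members. Lists were described by counts and medians. Leukocyte markers and the summed level of the epithelial markers are not reported here. Members and lists were chosen with earlier results of these data known. Genes named in the text were up to 10 members per direction, by size of the log2 ratio past the threshold, those listed at 0 in one group with at least 5 TPM in the other, the 5 most abundant, the largest change in each direction of each cluster and list, ZNF91, ZNF93, ZNF274, ZNF331, ZNF350, ZNF473, ZNF587, TRIM28, SETDB1 and FTO. Other genes, such as those of stretches of neighbours, were named after their values were seen. Differences between alternatives were judged by a 1.5-fold rule.

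Exons of 155 members overlap those of another annotated gene (96 on the same strand, 85 on the opposite strand). Shared sequence was measured as the percent of 50-base words of a member's transcript that occur in transcripts of another gene. Such members are uncertain where reads could be split. Promoter sequences are from RefSeq (GRCh38.p14). The calculations used Python 3.11.15, numpy 2.4.6, pandas 2.3.3 and matplotlib 3.10.9 and were tested on simulated data. Alternatives were another pseudocount, filters, scalings, thresholds, cluster gaps and rules for 0, and leaving out members with shared sequence.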

Additional observations from a re-analysis of the deposited data

How the results depend on the processing

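No paired analysis was possible because the table holds 1 mean per group, and leaving out replicates was not run for the same reason. The direction of the median log2 ratio of the members, and of every cluster median, was the same under each alternative run. The members' median ranged from -0.88 (pseudocount 0.1) to -0.46 (quantile normalization), beside -0.25 and -0.05 for all genes. With quantile normalization, 60 members were lower and 5 higher, beside 2833 and 2852 of all genes, against 3492 and 2340 without scaling. Median-ratio scaling gave 72 lower and 5 higher members and a median of -0.60, beside -0.07 for all genes. The count of lower members, 77 as reported, was 28 with a minimum mean TPM of 5, 20 with a log2 ratio of at least 2 and 22 without the members whose exons overlap another gene. These were 29.5% of 95 members beside 17.4% of all genes, 9.85% beside 6.06%, and 31.4% of 70 members beside 17.0%, against 37.9% of 203 beside 17.0% as reported. The TPM minimum was applied to all genes too, but exon overlaps were taken out of the members only. The count of higher members, 5 as reported, was 2 with a log2 ratio of at least 2 and 2 without members with exon overlaps. With a pseudocount of 0.1, which gives low values more weight, cluster medians moved to -2.57 at 19p12, -3.37 at 19q13.12 and -2.19 in the proximal 19p13.2 cluster. With no filter, the median at 19p12 was -0.22, since members near 0 in both groups were counted. Leaving out members with over 25% of shared words, an alternative chosen after seeing the data, gave 68 lower members. At a minimum of 5 TPM, the clusters at 19q13.11 and proximal 19p13.2 held under 5 members and gave no value, and the median at 19q13.12 was -0.999, above -1.17 at 19p12. Of 216 values of named genes under alternatives, 202 lay on the same side of the threshold, 11 were no longer past it (ZNF350 with quantile normalization, the others with a log2 ratio of at least 2) and 3 were newly past it. None past the threshold changed sign, but ZNF254 moved from -0.04 to 0.08 with median-ratio scaling and 0.30 with quantile normalization, and ZNF274 from -0.07 to 0.09 and 0.02.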
